A study of Homo sapiens with 4 samples.

Results

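The nuclear genes for the subunits of the mitochondrial respiratory chain and ATP synthase were followed in KP4, an established human pancreatic ductal adenocarcinoma line. Members were the protein-coding rows of the stranded count table whose symbols name an NDUF, SDH, UQCR, COX or ATP5 subunit, which gave 88 of 60651 genes. They were divided into 37 genes of complex I, 4 of complex II, 9 of complex III, 18 of complex IV and 20 of complex V. NDUFA4 and NDUFA4L2 were placed in complex IV, where the NDUFA4 protein is now known to sit, and readthrough rows were kept with the complex of their symbol. The groups were E5 cells given FOLFIRINOX, E5 cells given vehicle (DMSO), control cells given FOLFIRINOX and control cells given vehicle, each for 96 h. The drug mixture held 25 nM of SN-38, the active form of irinotecan, 5 µM of oxaliplatin and 10 µM of a compound the labels write 5-F. E5 names KP4 cells that had been through repeated cycles of treatment before the experiment, and whether the E5 vehicle cells had met the drugs in those cycles is not settled by the sources used here. Each group was 1 GEO sample with 3 numbered columns, read as 3 libraries. The sources used here do not say if these are separate cultures or technical repeats, so every p-value measures the spread between such columns.

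The respiratory chain lies in the inner mitochondrial membrane. Complex I takes electrons from NADH and complex II from succinate. Both pass them to coenzyme Q, from which complex III moves them to cytochrome c and complex IV to oxygen. Complexes I, III and IV pump protons, and ATP synthase, complex V, uses the resulting gradient to make ATP. All but complex II combine nuclear subunits with subunits encoded in mitochondrial DNA, and tumour cells differ widely in how far they rely on this machinery.

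Reads assigned to genes ranged from 7359034 to 21775030 per library. The line expressed the epithelial keratins KRT8 and KRT18 (means per group of 33.3 to 234 and 126 to 482 FPKM, fragments per kilobase scaled to depth). The mesenchymal marker VIM averaged 1002 to 1387 FPKM per group, whereas EPCAM, CDH1 and KRT19 stayed at or below 4.86 FPKM in every library. KRT7 averaged 1.71 to 10.5 FPKM and the mesenchymal cadherin CDH2 15.2 to 29.5 FPKM per group. The mesenchymal markers ZEB1 and FN1 averaged 6.97 to 17.5 and 1.51 to 5.55 FPKM per group. Acinar and beta-cell genes PRSS1, CPA1 and INS were listed at 0, as was the T-cell gene CD3E. PTPRC, the leukocyte marker CD45, averaged 0.01 FPKM in E5 cells under FOLFIRINOX, 0.00333 in E5 cells under vehicle, 2.71 in control cells under FOLFIRINOX and 11.5 in control cells under vehicle. CD68, a macrophage marker, had 6.44 to 75.1 FPKM but 32 reads over all libraries. The part of these markers in the results was not tested.

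The members were abundant messages, and each complex kept a summed level of the same order in every group. Of the 88, 80 passed the filter on low counts. The 80 averaged between 0.485 and 557 FPKM over the 12 libraries, with a median of 142 FPKM, and 78 of them averaged at least 20 FPKM. ATP5F1B, the catalytic beta subunit of ATP synthase, was highest at 557 FPKM, followed by COX7C with 508 and NDUFB9 with 482. Summed over complex I, levels were 4509 ± 59.1 FPKM in E5 cells under FOLFIRINOX, 4297 ± 40.7 in E5 cells under vehicle, 4773 ± 254 in control cells under FOLFIRINOX and 4443 ± 270 in control cells under vehicle (SD, n = 3 libraries). Summed over complex V they were 4499 ± 43.6, 4353 ± 31.4, 4501 ± 227 and 4278 ± 245 FPKM in the same order of groups. In CPM (a gene's share of the library's reads, scaled by TMM) complex V was lower under the drug in both lines, with 3291 ± 50.4 in E5 cells under FOLFIRINOX against 3466 ± 38.7 under vehicle and 3158 ± 77.3 in control cells under FOLFIRINOX against 3455 ± 185 under vehicle. Complex III stood at 1291 ± 28.1 FPKM in E5 cells under FOLFIRINOX and 1126 ± 18.4 under vehicle, and at 1410 ± 71.9 in control cells under FOLFIRINOX against 1160 ± 58.8 under vehicle, but in CPM its sums were 865 ± 8.26, 847 ± 11.8, 883 ± 19 and 876 ± 42.1 over those groups. The direction of the complex V sum under FOLFIRINOX thus differed between the units, and in CPM the complex III sums of the control groups differed by less than their SD. For all members together the sum in CPM was 8706 ± 80.5 in E5 cells under FOLFIRINOX and 8793 ± 103 in E5 cells under vehicle, and 8487 ± 286 in control cells under FOLFIRINOX against 8792 ± 473 in control cells under vehicle. In both lines the FOLFIRINOX and vehicle libraries overlapped in that sum. CPM is a share of all reads, so that less RNA per cell and fewer cells expressing a gene cannot be told apart.

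Subunits with tissue-specific copies were present in the common form. COX4I1 had 222 FPKM in E5 cells under FOLFIRINOX, 218 in E5 cells under vehicle, 323 in control cells under FOLFIRINOX and 284 in control cells under vehicle, while its hypoxia- and lung-associated copy COX4I2 gathered 0, 1, 2 and 0 reads over those groups. COX6A2 and COX7A1, the heart and muscle copies, had 0 reads in every library, which allows up to 0.0613 CPM in E5 cells under FOLFIRINOX, 0.0854 in E5 cells under vehicle, 0.0654 in control cells under FOLFIRINOX and 0.0633 in control cells under vehicle (3 counts over a group, counting error only). Their common partners COX6A1 and COX7A2 averaged 254 to 390 and 290 to 405 FPKM per group. COX7B2 and COX6B2, known from testis, had at most 1 and 12 reads over a group, beside 242 to 308 FPKM of COX7B and 229 to 281 FPKM of COX6B1. NDUFA4L2, a hypoxia-induced copy of NDUFA4, had 0.0867 FPKM in E5 cells under FOLFIRINOX, 0.8 in E5 cells under vehicle, 0.333 in control cells under FOLFIRINOX and 0.72 in control cells under vehicle, against 233 to 301 FPKM of NDUFA4. The 8 members that did not pass the filter were these 5 copies of complex IV (COX4I2, COX6A2, COX6B2, COX7A1, COX7B2), the readthrough rows NDUFC2-KCTD14 and ATP5MF-PTCD1, and ATP5MGL.

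For 3 tested members of complex I the counts and the authors' FPKM did not describe the same level. Their CPM per FPKM was under 0.1 of the median of the tested members. NDUFV2, which carries an iron-sulphur cluster of the NADH-oxidising arm, had 0 to 1.19 CPM in the 12 libraries but 85.2 to 166 FPKM. NDUFA13 and NDUFA7 likewise stayed at or below 1.6 and 1.11 CPM, at 81.8 to 128 and 20 to 41.6 FPKM. Each of the 3 genes shares between 21.0 and 32.3% of its exonic bases with another annotated gene on the same strand. Sharing of any extent, from 1.4% upward, was found in 27 of the 88 members. NDUFB8 and COX8A shared 33.8 and 34.5%, and their CPM per FPKM stood at 0.143 and 0.41 of that median. NDUFA11, which shared 9.7%, stood at 0.107 of it, just above the cutoff. The part of this overlap in the low counts was not tested. The readthrough rows NDUFC2-KCTD14 and ATP5MF-PTCD1, which were not tested, also had low counts for their FPKM. Fold changes of the 3 tested members are uncertain. NDUFA7 counted among the members that rose in control cells under FOLFIRINOX (0.91 ± 0.33 in counts), while its FPKM gave -0.53. Processed pseudogenes are annotated for 48 of the 88 members, among them ATP5MC1 with 8, and counts of such members are likewise uncertain to the extent that reads were shared.

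In the reported test FOLFIRINOX in control cells moved subunit genes in both directions within each complex. Calls kept under every other processing and without each library went both ways only in complexes I and V. With edgeR's quasi-likelihood test adjusted over all genes by the Benjamini-Hochberg method at 0.05, 21 of the 80 tested members rose and 27 fell. Among all 15636 genes tested 32.6% rose and 32.7% fell, 65.3% in all, so the members' shares of 26.2 and 33.8% lay below and near that background. The median log2 fold change was -0.01 in the members and 0.00 in all genes, and 2 members (NDUFA4L2 and ATP5F1D) changed by at least 1, against 20.5% of all genes. Without the library control vehicle R2, 13 members rose. The split also depended on the scaling. It was 32 higher and 19 lower with total counts in place of TMM and 32 higher and 18 lower on log2(FPKM + 1), scales on which the median of all genes itself lay at 0.14, and 9 higher and 44 lower with offsets for transcript GC content and length. The members' median was 0.02 and 0.05 below that of all genes on the total-count and FPKM scales and 0.21 below it with the offsets. Their transcripts were short, with a median of 1510 bases against 3348 bases for all genes tested, and had a like GC content (47.7 and 47.8%).

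**Figure D1:**
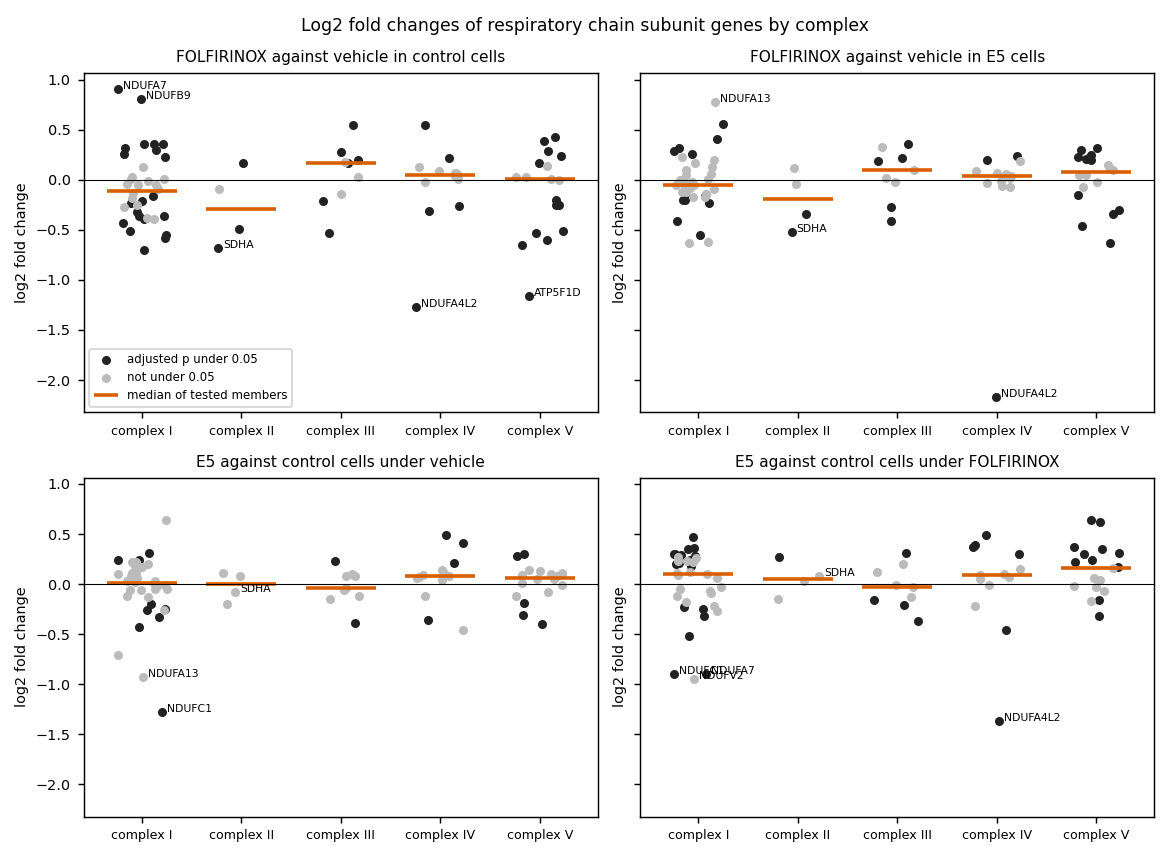
Log2 fold change (vertical axis) of the 80 tested members by complex (horizontal axis) in 4 comparisons; each point is a gene, black where the adjusted p was under 0.05 and grey otherwise, and the bar is the median of the complex. Members of each complex lie on both sides of 0, and ATP5F1D at -1.16 is the lowest well-expressed member under FOLFIRINOX in control cells.

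**Figure D2:**
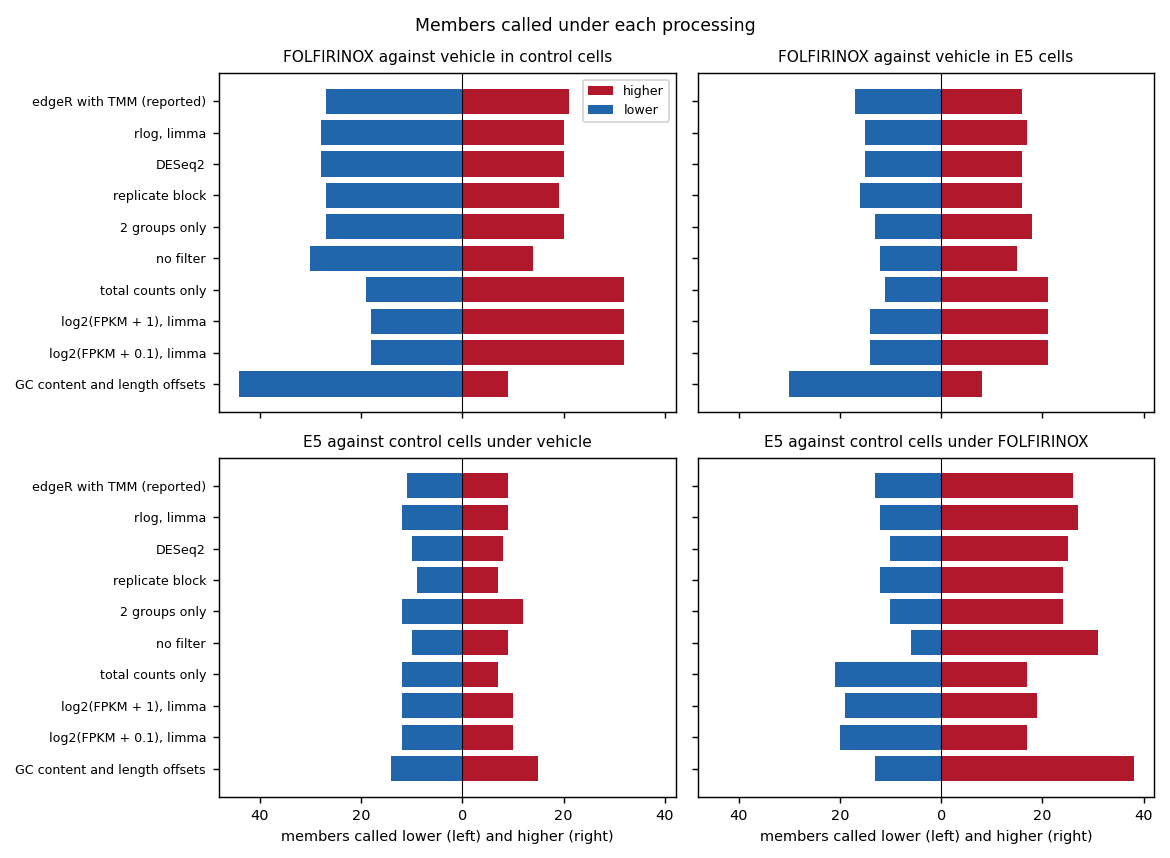
Number of members called higher (right) and lower (left) in the 4 comparisons under the reported test and 9 other processings. In control cells FOLFIRINOX gave 21 higher and 27 lower as reported, 32 and 18 on either FPKM scale and 9 and 44 with offsets for GC content and length.

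In complex I several subunits of the catalytic core fell, while its accessory subunits went in both directions. Of the 7 core subunits 4 fell and the others did not pass, with a median of -0.23, but on the FPKM scales 3 were higher and 3 lower. The 7 include NDUFV2, whose counts were low for its FPKM. NDUFS7, which carries the last iron-sulphur cluster before coenzyme Q, fell by 0.43 ± 0.11 (SE, adjusted p = 0.0035) on the log2 scale. NDUFS3 fell by 0.23, a call lost with total counts and on the FPKM scales, with -0.03 on log2(FPKM + 1). NDUFS1, the large iron-sulphur subunit, fell by 0.16 and turned to 0.16 on the FPKM scales and 0.11 with the GC and length offsets. NDUFV1, which binds NADH, had -0.05 ± 0.08 (adjusted p = 0.6) and 0.19 on the FPKM scales. NDUFB9, an accessory subunit of the membrane arm, went the other way, with 469, 491 and 445 CPM in control cells under FOLFIRINOX against 255, 256 and 292 CPM under vehicle. The groups did not overlap, with a log2 fold change of 0.81 ± 0.07 (adjusted p = 1.3e-08), the highest of the complex at over 5 CPM. NDUFB10 and NDUFV3, also accessory, rose by 0.30 and 0.36, while the accessory NDUFC1 and NDUFB6 fell by 0.55 and 0.51. NDUFS5, also accessory, had 106, 111 and 107 CPM in control cells under FOLFIRINOX against 162, 148 and 172 CPM under vehicle, without overlap, a log2 fold change of -0.58 ± 0.06 (adjusted p = 5.9e-07).

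In complex II, the flavoprotein SDHA, which oxidises succinate, fell. It had 8.62, 11.1 and 9.98 CPM in control cells under FOLFIRINOX against 14.5, 16.7 and 16.8 CPM under vehicle, groups that did not overlap, with a log2 fold change of -0.68 ± 0.11 (adjusted p = 3.7e-05). The membrane anchor SDHC fell by 0.49 ± 0.09 (adjusted p = 0.00018) and had -0.20 with the offsets, which did not pass. The iron-sulphur subunit SDHB rose by 0.17 ± 0.06 (adjusted p = 0.017), a direction that turned to -0.13 with the GC and length offsets and a call lost without control FOLFIRINOX R1, control vehicle R1 or control vehicle R2, and the anchor SDHD had -0.09 (adjusted p = 0.33). In complex III, UQCRC1, a core subunit, fell to 78.5, 90.3 and 72.4 CPM in control cells under FOLFIRINOX, against 112, 106 and 130 CPM under vehicle. The groups were separate, with -0.53 ± 0.10 (adjusted p = 0.00012). UQCRH, the hinge subunit, rose by 0.28 ± 0.06 (adjusted p = 0.00057) but turned to -0.05 with the offsets. UQCRHL, a retrocopy of UQCRH whose reads may be shared with it, had the highest fold of the complex, 0.55 ± 0.15 (adjusted p = 0.0043), a call lost without control FOLFIRINOX R2. The Rieske iron-sulphur protein UQCRFS1 had -0.14 (adjusted p = 0.11).

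In complex IV 2 of 13 tested members rose and 3 fell, with a median of 0.05, against 7 higher and 0 lower on the FPKM scales and 1 higher and 8 lower with the offsets. COX6A1, a nuclear regulatory subunit, had 40.1, 44.4 and 37.1 CPM in control cells under FOLFIRINOX against 26.5, 25.7 and 30.7 CPM under vehicle, without overlap, a log2 fold change of 0.55 ± 0.10 (adjusted p = 0.00017). COX5A, which lies near the matrix side of complex IV, rose by 0.22 ± 0.07 (adjusted p = 0.0098), a call lost without control vehicle R2, and turned to -0.07 with the offsets, and NDUFA4 fell by 0.31 ± 0.06 (adjusted p = 0.00017), a call lost on the FPKM scales. COX4I1 and the zinc-binding COX5B had 0.07 and 0.04 (adjusted p = 0.41 and 0.66), COX5B turning to -0.23 with the offsets. COX7A2L, a factor that joins complexes III and IV into supercomplexes, had 0.01.

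Complex V had 5 of 18 tested members higher and 8 lower, which became 9 and 5 with total counts and 3 and 11 with the offsets, and subunits of its catalytic head did not move together. ATP5F1D, the delta subunit of the central stalk, had 19.2, 19.9 and 14.6 CPM in control cells under FOLFIRINOX against 37.8, 34.9 and 45.9 CPM under vehicle. Every FOLFIRINOX library was below every vehicle library, with a log2 fold change of -1.16 ± 0.13 (adjusted p = 4.7e-07). ATP5F1A, the alpha subunit, fell to 448, 447 and 454 CPM in control cells under FOLFIRINOX, against 687, 658 and 704 CPM under vehicle. This gave -0.60 ± 0.05 (adjusted p = 2.7e-08), again without overlap. ATP5F1B, which alternates with the alpha subunit around the head, had 1002, 1039 and 993 CPM under FOLFIRINOX against 995, 963 and 1060 CPM under vehicle. These ranges overlapped and the log2 fold change was 0.01 ± 0.05 (adjusted p = 0.91), although the offsets turned it to -0.19. ATP5PB, a subunit of the peripheral stalk, rose by 0.29 ± 0.06 (adjusted p = 0.00027), and the inhibitor ATP5IF1 had 0.14 (adjusted p = 0.074).

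Of these calls, 6 higher and 15 lower members were called the same way under each of the 9 other processings and without each of the 12 libraries in turn. The 6 were NDUFB10, NDUFB9, NDUFV3, COX6A1, ATP5MC1 and ATP5PB. The 15 included NDUFA10, NDUFB2, NDUFB4, NDUFB6, NDUFC1, NDUFS5, NDUFS7, SDHA, UQCRC1, ATP5F1A, ATP5F1D, ATP5MC2, ATP5MC3 and ATP5MF. They were picked out by this criterion after their values were seen. The share of all genes meeting it was not computed, and the GC and length offsets alone gave 9 higher and 44 lower members. The balance of 6 to 15 is therefore not read as a trait of the members.

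In E5 cells too FOLFIRINOX moved subunit genes in both directions. Of the 80 tested members 16 rose and 17 fell, shares of 20 and 21.2%, against 25 and 27.3% of all genes tested (52.3% in either direction). The medians were 0.00 in the members and 0.00 in all genes. The split was 21 higher and 11 lower with total counts, 21 and 14 on log2(FPKM + 1), and 8 and 30 with the GC and length offsets. Of the members that rose, 13 rose in both lines, which is 81.2% of the 16 in E5 cells and 61.9% of the 21 in control cells. Of those that fell, 15 fell in both, 88.2% of the 17 in E5 cells and 55.6% of the 27 in control cells. For all genes the shares of the E5 and of the control calls were 76.5 and 58.7% for higher and 76.3 and 63.7% for lower. Opposite directions in the lines were called for 0 members. Such calls were also few among all genes tested, where 156 rose in control and fell in E5 cells and 131 did the reverse. Beside these, 2990 genes rose and 3253 fell in both lines.

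Several members that led the response in control cells were also called in E5 cells. SDHA had 9.72, 10.7 and 11.7 CPM in E5 cells under FOLFIRINOX against 14.1, 16.3 and 15 CPM under vehicle, which gave -0.52 ± 0.11 (adjusted p = 0.00086). ATP5F1A had 427, 392 and 385 CPM under FOLFIRINOX against 547, 556 and 551 CPM under vehicle, or -0.46 ± 0.05 (adjusted p = 1.7e-06). In both genes the FOLFIRINOX libraries lay below the vehicle libraries. UQCRC1 fell by 0.41 ± 0.10 (adjusted p = 0.0017), the Rieske protein UQCRFS1 by 0.27 ± 0.075 (adjusted p = 0.0056) and ATP5F1D by 0.63 ± 0.12 (adjusted p = 0.00032). NDUFS4, an accessory subunit of complex I, had the highest fold of that complex among called members of at least 5 CPM, with 56.3, 50.8 and 58.2 CPM in E5 cells under FOLFIRINOX against 33.5, 40 and 37.6 CPM under vehicle (0.56 ± 0.08, adjusted p = 1.6e-05). Its libraries did not overlap. UQCRB rose by 0.36 ± 0.08 (adjusted p = 0.0015) and COX7B by 0.24 ± 0.07 (adjusted p = 0.0062), which became 0.07 and did not pass with the offsets. ATP5F1B fell by 0.15 ± 0.05 (adjusted p = 0.03). That call was lost with DESeq2, total counts, no filter, the compared groups alone, rlog values and the FPKM scales. It was also lost without any 1 of 5 libraries. Of the 7 core subunits of complex I 3 fell and the others did not pass, with a median of -0.20, and with the offsets 2 rose and 2 fell. NDUFA4L2 fell in both lines, by 2.17 in E5 and 1.27 in control cells, with 1.32 CPM or less in every library.

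**Figure D3:**
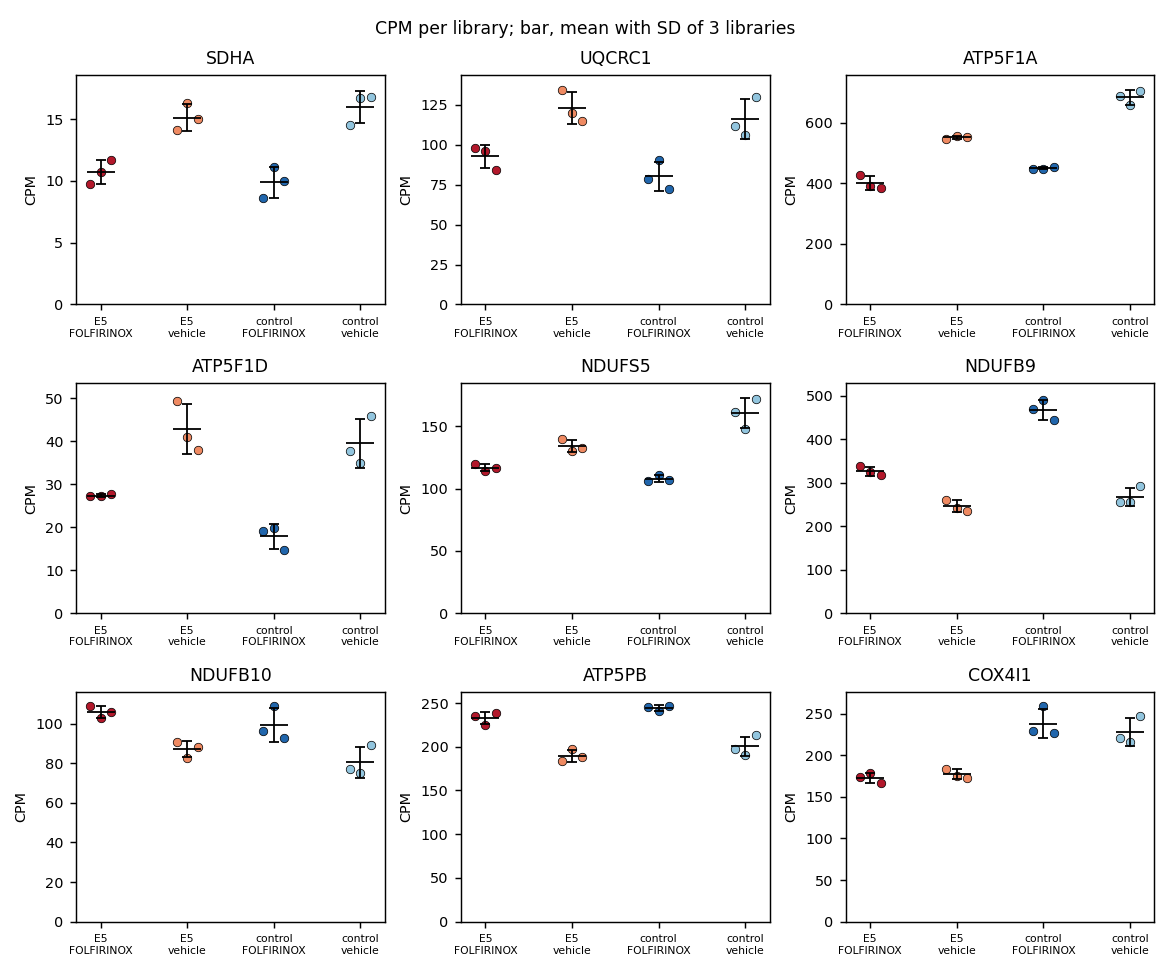
CPM (vertical axes, from 0) of 9 members in each of the 12 libraries; points are libraries, and the bar is the mean with SD of 3. SDHA, UQCRC1, ATP5F1A, ATP5F1D and NDUFS5 are lower under FOLFIRINOX than under vehicle in both lines, NDUFB9, NDUFB10 and ATP5PB are higher, and COX4I1 is lower in E5 than in control cells.

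The difference of the drug responses, E5 minus control, was tested in the same edgeR fit. It passed the test in the positive direction for 8 members and in the negative for 4, against 13.3 and 12.4% of all genes tested (25.7% in either direction). The members' shares were 10 and 5%. Without control FOLFIRINOX R2, 15 members passed in the positive direction, and without control vehicle R2, 2 passed in the negative. In E5 cells NDUFB9 had 338, 324 and 317 CPM under FOLFIRINOX against 261, 242 and 235 CPM under vehicle, a rise of 0.41 ± 0.07 (adjusted p = 6e-05), against the rise of 0.81 in control cells. The difference was -0.40 ± 0.09 (adjusted p = 0.0045). For ATP5MC2 the difference was 0.56 ± 0.11 (adjusted p = 0.0011), for NDUFC1 0.38 ± 0.10 (adjusted p = 0.0076) and for NDUFS5 0.38 ± 0.09 (adjusted p = 0.006). These 4 differences passed under each other processing except the fit on the compared groups alone, which cannot give a difference, and without each library in turn. For ATP5F1D the difference of 0.52 ± 0.17 (adjusted p = 0.037) did not pass with total counts, nor when any 1 of 8 of the 12 libraries was left out. For NDUFA7, -1.54 ± 0.49 (adjusted p = 0.031) rested on 1.11 CPM or less per library and was -0.12 on the FPKM scale, where it did not pass.

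The 3 genes of ATP synthase subunit c, whose proteins form the rotor ring and are identical once the targeting peptides are removed, parted from each other. In control cells ATP5MC1 had 64.9, 80.9 and 61.8 CPM under FOLFIRINOX against 50.9, 47.4 and 56.5 CPM under vehicle, a rise of 0.43 ± 0.09 (adjusted p = 0.00072). ATP5MC2 had 78.8, 83.1 and 72.2 CPM against 106, 103 and 124 CPM, a fall of 0.51 ± 0.075 on the log2 scale (adjusted p = 1.5e-05). ATP5MC3 had 122, 132 and 131 CPM against 199, 190 and 215 CPM, a fall of 0.65 ± 0.06 (adjusted p = 5.3e-08). In none of the 3 genes did the groups overlap. In E5 cells ATP5MC1 rose by 0.32 ± 0.09 (adjusted p = 0.0092) and ATP5MC3 fell by 0.30 ± 0.06 (adjusted p = 0.00032). ATP5MC2 had 101, 99.4 and 101 CPM in E5 cells under FOLFIRINOX against 96.7, 98.8 and 95.8 CPM under vehicle, a log2 fold change of 0.05 ± 0.07 (adjusted p = 0.6). ATP5MC1 thus made up 20.6 ± 0.947% of the summed CPM of the 3 genes in E5 cells under FOLFIRINOX and 15.4 ± 0.401% under vehicle, and 25 ± 2.05% in control cells under FOLFIRINOX against 14.2 ± 0.218% under vehicle (SD, n = 3). The sum itself was 379 ± 2.68 CPM in E5 cells under FOLFIRINOX, 407 ± 3.85 in E5 cells under vehicle, 276 ± 18 in control cells under FOLFIRINOX and 364 ± 28.4 in control cells under vehicle. CPM is not scaled to transcript length, so these shares and sums are not relative levels of the 3 genes. In FPKM ATP5MC1, ATP5MC2 and ATP5MC3 had 166, 135 and 139 in control cells under FOLFIRINOX against 112, 174 and 196 under vehicle. In E5 cells they had 175, 164 and 200 under FOLFIRINOX against 135, 152 and 240 under vehicle.

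**Figure D4:**
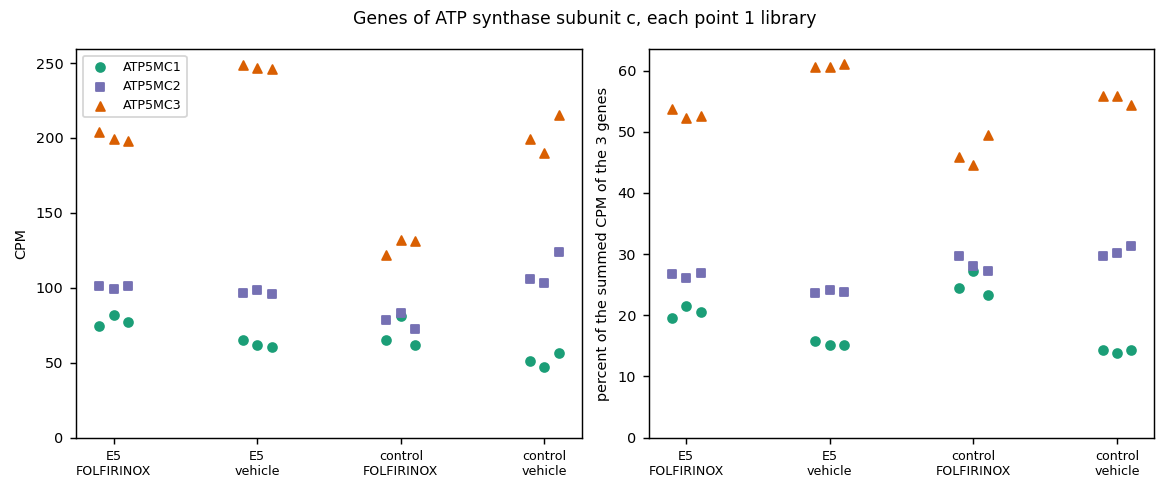
CPM of ATP5MC1, ATP5MC2 and ATP5MC3 (left) and each gene's percentage of their summed CPM (right) in the 12 libraries, by group. The ATP5MC1 share lies at 19.6 to 21.5% in E5 and 23.3 to 27.3% in control cells under FOLFIRINOX, above the 13.9 to 15.8% of the vehicle libraries. The shares are not scaled to transcript length.

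The promoters of ATP5MC1 and ATP5MC2, which moved apart in control cells, and of COX6A1 and NDUFS7, which also moved apart, are shown as windows of 300 bases (250 before the start to 50 after it) from RefSeq, build GRCh38.p14, 5′ to 3′ on the strand of the gene. Capitals mark matches to GCGCATGC, the core letters of the site of NRF1, a regulator of respiratory genes, or to CCGGAAG, core letters of ETS factors such as GABPA, on either strand. The windows are ATP5MC1 at chr17:48892537-48892836 (plus strand), ATP5MC2 at chr12:53676034-53676333 (minus strand), COX6A1 at chr12:120437863-120438162 (plus strand) and NDUFS7 at chr19:1383657-1383956 (plus strand).
ATP5MC1: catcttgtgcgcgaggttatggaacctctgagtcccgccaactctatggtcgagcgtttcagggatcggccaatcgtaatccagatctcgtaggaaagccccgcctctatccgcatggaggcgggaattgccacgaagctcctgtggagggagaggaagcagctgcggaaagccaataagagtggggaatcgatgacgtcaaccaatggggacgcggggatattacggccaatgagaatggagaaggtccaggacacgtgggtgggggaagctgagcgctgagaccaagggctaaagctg
ATP5MC2: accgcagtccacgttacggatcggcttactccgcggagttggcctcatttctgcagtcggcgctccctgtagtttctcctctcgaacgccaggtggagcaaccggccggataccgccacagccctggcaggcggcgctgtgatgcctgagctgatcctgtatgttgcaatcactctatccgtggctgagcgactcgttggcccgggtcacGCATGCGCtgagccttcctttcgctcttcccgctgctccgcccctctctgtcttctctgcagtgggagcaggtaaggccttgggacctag
COX6A1: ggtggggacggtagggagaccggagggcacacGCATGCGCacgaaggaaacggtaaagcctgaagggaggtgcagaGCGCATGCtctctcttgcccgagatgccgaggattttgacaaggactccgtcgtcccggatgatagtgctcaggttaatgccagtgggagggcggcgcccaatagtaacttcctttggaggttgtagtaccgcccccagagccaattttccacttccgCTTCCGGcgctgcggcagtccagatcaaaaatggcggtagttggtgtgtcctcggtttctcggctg
NDUFS7: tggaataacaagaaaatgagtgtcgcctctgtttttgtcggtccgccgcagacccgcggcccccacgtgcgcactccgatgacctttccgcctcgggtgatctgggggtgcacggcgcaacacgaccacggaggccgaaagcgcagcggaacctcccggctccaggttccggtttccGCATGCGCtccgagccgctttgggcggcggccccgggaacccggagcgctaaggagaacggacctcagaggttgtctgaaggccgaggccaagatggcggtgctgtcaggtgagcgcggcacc
ATP5MC1 held no match to either. ATP5MC2 and NDUFS7, which fell in control cells, each held 1 match to the NRF1 letters, and COX6A1, which rose, held 2 matches to the NRF1 letters and 1 to the ETS letters. Of the 88 members 70 had a window in the RefSeq table, and the NRF1 letters stood in 13 of them (18.6%), against 3.05% of 35116 promoters and 3.74% of 22198 promoters of protein-coding genes. The ETS letters stood in 28.6% of the members' windows, against 10.3% and 12.8%. Both motifs were read on both strands. Among members that rose under FOLFIRINOX in control cells 22.2% of 18 windows held the NRF1 letters, and among those that fell 30% of 20. The ETS letters stood in 38.9 and 30%. A match is a description of letters and not a binding site.

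Between E5 and control cells under vehicle, the member with the lowest adjusted p was NDUFC1. Of the 80 tested members 9 were higher and 11 lower, shares of 11.2 and 13.8%, against 22.1 and 22.2% of all genes tested (44.3% in either direction). The count of higher members was 5 without control vehicle R1, control vehicle R2 or E5 vehicle R2. The median was 0.05 in the members and -0.01 in all genes, and with the GC and length offsets 15 were higher and 14 lower. NDUFC1, a small accessory subunit of complex I (chromosome 4, 139266880 to 139302551, GRCh38), had 45.3, 45.1 and 46.6 CPM in E5 cells against 104, 111 and 119 CPM in control cells. The groups did not overlap, with a log2 fold change of -1.28 ± 0.07 (adjusted p = 6.9e-11). COX4I1, the subunit through which complex IV binds ATP as a regulator, had 184, 175 and 173 CPM in E5 cells against 221, 216 and 247 CPM in control cells, without overlap (-0.36 ± 0.07, adjusted p = 0.00033). ATP5MD, a small membrane subunit of ATP synthase, had 95.9, 113 and 110 CPM against 134, 138 and 151 CPM (-0.40 ± 0.07, adjusted p = 0.00012). All E5 libraries lay below all control libraries in these 3 genes. UQCRB, which helps bind coenzyme Q in complex III (-0.39 ± 0.08, adjusted p = 0.0009), ATP5F1A (-0.31 ± 0.05, adjusted p = 0.0001) and NDUFS4 (-0.33 ± 0.08, adjusted p = 0.0026) were also lower. COX7A2 was higher, with 200, 197 and 199 CPM in E5 cells against 134, 139 and 150 CPM in control cells (0.49 ± 0.07, adjusted p = 7.7e-06). COX5B (0.41 ± 0.08, adjusted p = 0.0003), ATP5MC3 (0.30 ± 0.06, adjusted p = 0.00049) and NDUFB1 (0.31 ± 0.08, adjusted p = 0.0053) were also higher. Of the 4 subunits of complex II 0 passed in edgeR and 0 in DESeq2, with 1 at an unadjusted p under 0.05, and the median log2 fold change was -0.00. Of the 7 core subunits of complex I likewise 0 passed in edgeR and 0 in DESeq2, with 0 at an unadjusted p under 0.05 and a median of -0.05. The 7 include NDUFV2, whose 1.19 CPM or less per library were too few for these count-based tests to assess it. In FPKM NDUFV2 had 108, 112 and 106 in E5 cells against 151, 148 and 166 in control cells under vehicle, without overlap.

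Under FOLFIRINOX, ATP5MC3, ATP5F1D and NDUFA4 were among the subunit genes higher in E5 cells, and NDUFC1 remained lower. Of the 80 tested members 26 were higher and 13 lower, shares of 32.5 and 16.2%, against 26.7 and 27.6% of all genes tested (54.3% in either direction). The median was 0.09 in the members and -0.01 in all genes. The balance depended on the scaling, with 17 higher and 21 lower with total counts, 19 and 19 on log2(FPKM + 1), on which the median of all genes lay at -0.10, and 38 and 13 with the GC and length offsets. Without E5 FOLFIRINOX R2, 8 members were lower. Of the 18 tested members of ATP synthase 9 were higher and 2 lower, with a median of 0.17, and 7 were higher and 3 lower on log2(FPKM + 1). ATP5MC3 had 204, 199 and 198 CPM in E5 cells against 122, 132 and 131 CPM in control cells, without overlap (0.64 ± 0.06, adjusted p = 9e-08). ATP5F1D had 27.2, 27.2 and 27.7 CPM in E5 cells against 19.2, 19.9 and 14.6 CPM in control cells, with every E5 library higher (0.62 ± 0.13, adjusted p = 0.00055). NDUFA4 had 183, 181 and 187 CPM against 128, 134 and 129 CPM (0.49 ± 0.06, adjusted p = 1.9e-06). Again no E5 library overlapped the control libraries. NDUFB2, an accessory subunit of complex I, was higher by 0.47 ± 0.08 (adjusted p = 7.7e-05) and UQCRQ of complex III by 0.31 ± 0.06 (adjusted p = 0.00059). SDHC was higher by 0.27 ± 0.09 (adjusted p = 0.023), a call lost on the total-count, FPKM and offset scales and without control FOLFIRINOX R1 or E5 FOLFIRINOX R1. NDUFC1 was lower, with 39.7, 39.7 and 42.5 CPM in E5 cells against 75.5, 78.5 and 73.7 CPM in control cells (-0.90 ± 0.07, adjusted p = 6.9e-09). NDUFB9 (-0.52 ± 0.06, adjusted p = 3.2e-06), COX4I1 (-0.46 ± 0.07, adjusted p = 2.2e-05) and ATP5MD (-0.32 ± 0.07, adjusted p = 0.00066) were also lower. This comparison shares its control FOLFIRINOX libraries with the response of control cells.

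Several of the members low in E5 cells lay among neighbours that were low as well. For each member the 10 tested genes on each side along the chromosome were taken, or fewer where the chromosome ended. Of all genes tested 22.2% were lower and 22.1% higher in E5 cells under vehicle, and 27.6 and 26.7% under FOLFIRINOX. The 20 genes flanking NDUFC1, over 11.5 Mb of chromosome 4, had a median log2 fold change of -0.95 in E5 against control cells under vehicle, and 14 of them were lower and 1 higher. Under FOLFIRINOX their median was -0.81, with 13 lower and 2 higher. Around COX4I1 on chromosome 16 the median was -0.44 under vehicle (12 lower, 1 higher) and -0.27 under FOLFIRINOX. Around NDUFB8 and ATP5MD on chromosome 10 it was -0.48 (15 lower, 1 higher) and -0.31 (13 lower, 1 higher) under vehicle, beside members at -0.43 and -0.40. Under FOLFIRINOX it was -0.39 and -0.55. Around NDUFB5 on chromosome 3 it was -0.49 (13 lower, 1 higher) under vehicle. The member lay at -0.25 ± 0.07 (adjusted p = 0.0074, not passed with the offsets). Of the 11 members lower in E5 cells under vehicle, ATP5F1A and NDUFA12 had neighbours at -0.23 each, and 4 had neighbours near 0. These were NDUFS4 (-0.33, neighbours 0.02), UQCRB (-0.39, neighbours -0.11), NDUFS5 (-0.26, neighbours -0.11) and ATP5MC2 (-0.19, neighbours -0.06). Among members not lower, COX7A2 at 0.49 and COX5B at 0.41 had neighbours at -0.08 and 0.08 under vehicle. Some members that were not called lay among changed neighbours. UQCRFS1 at 0.10 had neighbours at -0.30 (10 lower, 5 higher) and NDUFA8 at 0.03 had neighbours at -0.20 (10 lower, 1 higher). SDHA at -0.08 had 13 neighbours at 0.39 (6 higher, 0 lower). Under FOLFIRINOX NDUFB9 at -0.52 had neighbours at 0.04. Across the 80 members, Pearson's r between a member and the median of its neighbours was 0.52 (Spearman's rho 0.26) under vehicle and 0.51 (rho 0.45) under FOLFIRINOX. These are descriptions across genes, which are not independent and share all libraries. DNA copy number was not analysed here.

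**Figure D5:**
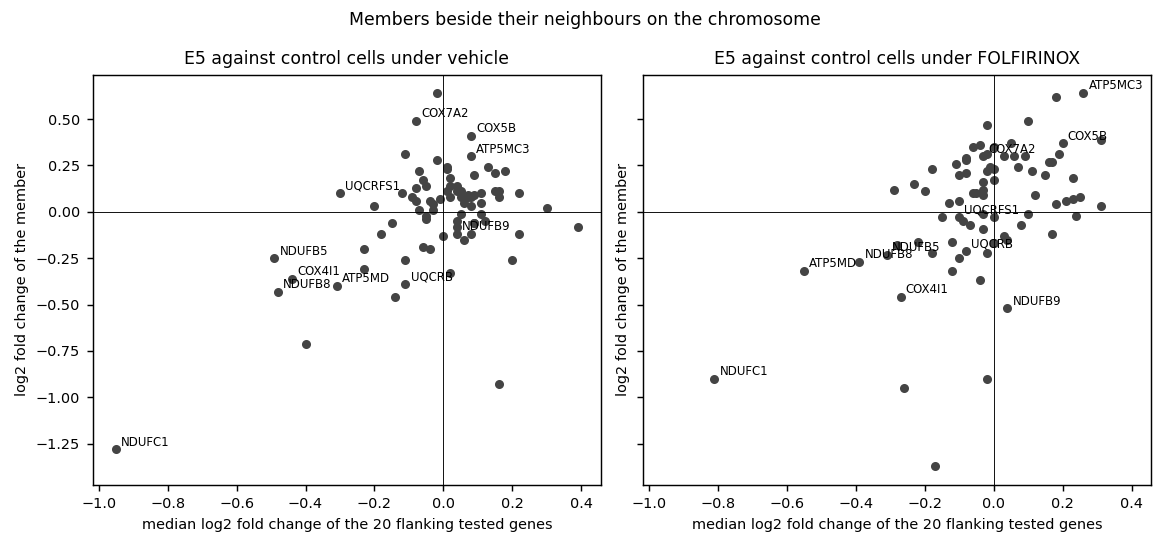
Log2 fold change of each of the 80 tested members in E5 against control cells (vertical axis) against the median of the up to 20 tested genes that flank it (horizontal axis), under vehicle (left) and FOLFIRINOX (right). NDUFC1 lies at the lower left in both, with -1.28 beside neighbours at -0.95 and -0.90 beside -0.81.

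Most subunits encoded in mitochondrial DNA fell under FOLFIRINOX, and many genes for mitochondrial ribosomes rose. The drug-response counts of this and the next gene groups stand against 25% of all genes higher and 27.3% lower in E5 cells. In control cells these shares are 32.6% higher and 32.7% lower. Of the 13 mitochondrially encoded subunits, 11 fell and 1 rose in E5 cells (median log2 fold change -0.56), and 12 fell and 1 rose in control cells (median -0.70). The riser was MT-ND1 (0.20 in E5 and 0.25 in control cells), whose sign turned to -0.03 and -0.09 with the GC and length offsets. MT-CO2, a catalytic subunit of complex IV, had 3165 ± 71.6 CPM in E5 cells under FOLFIRINOX against 5765 ± 539 under vehicle, and 2427 ± 102 CPM in control cells under FOLFIRINOX against 5192 ± 290 under vehicle (SD, n = 3). Its log2 fold changes were -0.87 ± 0.06 (adjusted p = 1.1e-08) in E5 and -1.10 ± 0.06 (adjusted p = 2.1e-10) in control cells. Between E5 and control cells under vehicle 0 of the 13 passed in edgeR, 0 in DESeq2 and 0 in limma on rlog values, 1 had an unadjusted p under 0.05, and 2 passed with the offsets. Under FOLFIRINOX 5 of the 13 were higher in E5 than in control cells and 0 lower, against 26.7 and 27.6% of all genes. Of 77 tested mitochondrial ribosomal protein genes, 47 rose and 2 fell in E5 cells (median 0.25), and 41 rose and 7 fell in control cells (median 0.24). With the offsets the counts were 42 and 5 in E5 cells and 31 and 14 in control cells. In E5 against control cells 28 of the 77 were lower and 6 higher under vehicle, against 22.2 and 22.1% of all genes. Under FOLFIRINOX 30 were lower and 8 higher, against 27.6 and 26.7%.

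Of 24 assembly factors for complex IV, 10 rose and 1 fell in E5 cells, and 15 rose and 4 fell in control cells. COX19, which handles copper, rose by 0.72 (adjusted p = 2.9e-06) in E5 and 1.13 (adjusted p = 5.2e-09) in control cells, while SURF1, needed for assembly of the catalytic core, fell by 0.47 and 0.44 on the log2 scale. Of 19 factors for complex I, 11 rose and 3 fell in E5 cells, and 10 rose and 6 fell in control cells. TMEM186 and NDUFAF8 rose in both lines. The iron-sulphur carrier NUBPL had -0.10 (adjusted p = 0.32) in E5 cells and fell by 0.79 in control cells, a difference of 0.69 ± 0.12 (adjusted p = 0.00058). Of 4 complex II factors 1 rose in E5 cells and 4 in control cells. SDHAF3, the one called in both, rose by 1.32 (adjusted p = 2.2e-09) in E5 and 1.31 (adjusted p = 2.9e-10) in control cells. For the 6 complex III factors the counts were 2 higher and 0 lower in E5 cells and 3 higher and 1 lower in control cells, and for the 6 complex V factors 4 higher and 1 lower in each line.

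Cytochrome c, CYCS, rose by 0.72 (adjusted p = 2.7e-06) in E5 and 0.83 (adjusted p = 2.4e-07) in control cells, whereas CYC1, its partner in complex III, had -0.17 and -0.24 and did not pass. Of 10 genes of coenzyme Q synthesis 4 rose and 4 fell in E5 cells, and 4 rose and 6 fell in control cells. Of 13 genes of the citric acid cycle, 7 fell and 1 rose in E5 cells, and 9 fell and 1 rose in control cells. CS (citrate synthase) had -0.39 in E5 and -0.63 in control cells, both of which passed. Among 16 regulators of mitochondrial gene expression, 5 rose and 2 fell in E5 cells, and 6 rose and 2 fell in control cells, so that the share that rose was near that of all genes in both lines. NRF1 fell by 0.29 (adjusted p = 0.014) in E5 and 0.33 (adjusted p = 0.0047) in control cells. TFAM, which packages mitochondrial DNA, did not pass under the drug in either line and was lower in E5 than in control cells under vehicle (-0.85, adjusted p = 2.9e-06). The majority direction under FOLFIRINOX of the complex IV factors, the citric acid cycle genes and the mitochondrially encoded genes was the same in both lines on the total-count, FPKM and offset scales.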

How the data were processed

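Total RNA of KP4 cells was sequenced as poly(A) libraries, per the labels' protocols. Reads were trimmed with Trimmomatic and aligned with STAR 2.5.1b to GRCh38, per the submitters' processing notes. The authors deposited stranded read counts per gene, FPKM (fragments per kilobase, scaled to depth) per gene, and rlog values on a log2 scale. Of the reads, 1.47 to 1.7% were unmapped, 10.79 to 12.84% multimapping, 6.63 to 8.52% outside features and 2.86 to 3.2% ambiguous, and these rows were left out of library sizes. CPM here are counts scaled by TMM library sizes. All sample columns were mapped to a group.

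The deposited counts were tested with edgeR 4.0.16 (R 4.3.3): TMM, filterByExpr, 1 mean per group, quasi-likelihood F test, Benjamini-Hochberg adjustment over the 15636 genes tested, threshold 0.05. The biological coefficient of variation was 7.37%. The 3 columns of a group varied 1.42 to 13.01 times as much as counting error. Alternatives were DESeq2 1.42.0, total counts, no filter, the groups compared alone, limma 3.58.1 on the authors' log2(FPKM + 1), log2(FPKM + 0.1) and rlog values, the column number as a block, offsets for transcript GC content and length, and leaving out each library. Error values are SD of 3 libraries or SE of a log2 fold change.

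Named genes are, per complex and comparison, the highest and lowest called member reaching 5 CPM, members whose drug responses differed by at least 0.5, catalytic and regulatory subunits, isoform pairs, and the extremes of the other lists. Other genes named were chosen after their values were seen. The members and lists were chosen with earlier results of these data known. Some genes that meet the rule are not reported here.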

Additional observations from a re-analysis of the deposited data

Results flagged for a closer look

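The response to FOLFIRINOX differed between E5 and control cells in 12 members, each by the test of the difference itself in edgeR with adjustment over all genes, against 25.7% of all genes tested. Of the 12, 8 had a positive difference (E5 response minus control response). ATP5MC2, which makes subunit c of the ATP synthase rotor, differed by 0.56 (adjusted p = 0.0011) and its sister gene ATP5MC3 by 0.34 (adjusted p = 0.0059). ATP5F1D, the delta subunit, differed by 0.52 (adjusted p = 0.037) and NDUFA4 of complex IV by 0.40 (adjusted p = 0.002). NDUFA5, an accessory subunit of complex I, differed by 0.48 (adjusted p = 0.041), a call lost when any 1 of 6 libraries was left out. NDUFC1 and NDUFS5 each differed by 0.38 (adjusted p = 0.0076 and 0.006), and COX7C by 0.32 (adjusted p = 0.019). The calls for NDUFA4, ATP5MC3 and COX7C were lost on the FPKM scales. Those for ATP5MC3 and COX7C were also lost with the GC and length offsets, and that for COX7C with total counts.

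The other 4 differences were negative. NDUFB9 rose less in E5 than in control cells, with a difference of -0.40 (adjusted p = 0.0045). NDUFV3 differed by -0.36 (adjusted p = 0.011) and NDUFA8 by -0.35 (adjusted p = 0.023), and both calls were lost when no filter on low counts was used. The NDUFA8 call was also lost when any 1 of 4 libraries was left out. NDUFA7 differed by -1.54 (adjusted p = 0.031) at counts too low to carry the value, as described with the low-count members.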

How the results depend on the processing

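Counts of called members depended on the scaling, the filter and single libraries, and the cause was not tested. With offsets for GC content and length, FOLFIRINOX gave 9 higher and 44 lower members in control cells and 8 and 30 in E5 cells, E5 against control cells gave 15 higher under vehicle, and the difference of the responses 19 higher. On log2(FPKM + 1) and log2(FPKM + 0.1) alike, 32 members were higher under FOLFIRINOX in control cells and 4 had a positive difference. On log2(FPKM + 1) 8 had a negative one. On log2(FPKM + 0.1) E5 cells under FOLFIRINOX had 17 higher and 20 lower. With total counts these were 17 and 21, control cells under FOLFIRINOX had 32 higher, E5 cells 11 lower, and 5 members had a positive difference. With no filter on low counts, 6 members were lower in E5 cells under FOLFIRINOX and 1 had a negative difference.

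Leaving out 1 library at a time gave 13 to 20 higher and 24 to 30 lower under FOLFIRINOX in control cells, 12 to 18 and 13 to 18 in E5 cells, 5 to 13 and 9 to 13 in E5 against control cells under vehicle, 21 to 36 and 8 to 13 under FOLFIRINOX, and 6 to 15 and 2 to 5 for the difference. Over the reported values of single genes, 2575 of 2664 kept their direction and side of the threshold, 83 lost the call, 6 gained it and 0 changed sign.

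Among called members and named genes, signs turned under FOLFIRINOX in control cells with the offsets for SDHB (-0.13), NDUFS1 (0.11), COX5A (-0.07), COX5B (-0.23), ATP5F1B (-0.19), UQCRH (-0.05), UQCR10 (-0.18), ATP5MD (-0.18), NDUFB3 (-0.10), NDUFS4 (-0.02) and MT-ND1 (-0.09, and -0.03 in E5 cells). On both FPKM scales they turned there for NDUFS1 (0.16) and NDUFV1 (0.19), and on log2(FPKM + 1) for NDUFA7 (-0.53) and NDUFC2 (-0.03). In E5 against control cells under FOLFIRINOX NDUFS1 turned to -0.10 on both. DESeq2 kept 218 of 222 single values, limma on rlog values 220.

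Columns with the same number did not deviate together (correlations from -0.19 to 0.15), so the numbers were not taken to pair the libraries. The replicate block gave 19 higher and 27 lower in control cells, 16 and 16 in E5 cells, 7 and 9 and 24 and 12 in E5 against control cells under vehicle and FOLFIRINOX, and 7 and 4 for the difference, without a call for ATP5F1D. Values rest on 3 columns of 1 GEO sample per group, at 7359034 reads or more per library.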
